A study of Mus musculus with 16 samples.

Results

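Imprinted genes are expressed mainly from the chromosome of a single parent, and 40 of them were followed here through maps of 3 histone marks in hair follicle stem cells and other keratinocytes of mouse skin. The 40 members were taken by name from genes with well established imprinting, and each was described by the deposited peaks within 3000 bp of any of its annotated transcript starts and over its gene body. They were set beside all 22367 protein-coding genes of the same annotation (GENCODE vM1, mouse build NCBIM37, which is mm9). Of the members, 38 are protein coding and the other two, H19 and Meg3, are long noncoding RNAs. By background knowledge 21 are grouped here as paternally and 18 as maternally expressed, and Ddc as dependent on the tissue. Each gene has a single label, although for some others, such as Ube3a and Gnas, the parent also depends on the tissue or promoter. The expressed parent was not measured in these cells.

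Chromatin immunoprecipitation with sequencing had been done for H3K4me3, H3K27me3 and H3K9me3 on cells sorted from skin of male CD1 x FVB mice. EA-HFSCs are hair follicle stem cells sorted as CD34+/α6-integrin+ at early anagen (postnatal days 22 to 25), and LC-HFSCs are the same kind at late catagen (days 38 to 44). Their non-HFSC counterparts, non-EA-HFSCs at the earlier stage and non-LC-HFSCs at the later one, are the CD34-/α6-integrin+ keratinocytes, mostly epidermis and lower outer root sheath. No transgene or mutation was involved, skin of many mice was pooled for each sort, and the CD34- gate holds a mixture of cell types. Each mark and population came as a single list of peaks, 12 in all, and the 4 IgG samples have no list of their own. Where 4 values follow each other for a gene or a count, they run from EA-HFSCs through LC-HFSCs to the non-HFSCs of early anagen and then of late catagen.

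The lists differed in length, which bears on every count below. H3K4me3 had 21482 peaks in EA-HFSCs, 14718 in LC-HFSCs, 24498 in non-EA-HFSCs and 18996 in non-LC-HFSCs. H3K27me3 had 25534, 1909, 17488 and 15273 peaks in the same order, and H3K9me3 had 42277, 1414, 17873 and 18236. The score of a peak is the negative log10 of its MACS p-value times 10, which grows with read number, so scores are given as a description and were not compared between lists. With 1 list for each condition there is no replicate spread and no test between populations. Each count of members is therefore read against the share of all genes in the same list, with the 95% Wilson interval of the members' share, which covers counting error only. The members are not independent draws either, since 32 of them share a cluster with another member within 1 Mb (18 clusters in all). They also have more annotated starts than protein-coding genes as a whole (median 3 against 2) and are longer (median 26072 against 15427 bp).

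Marker genes fitted the sorts in part. All 4 markers of basal keratinocytes (Krt5, Krt14, Itga6, Trp63) had H3K4me3 at a start in every population, and of 7 bulge stem cell genes 7 had it in both stem cell lists and 6 in both non-HFSC lists, Cd34 being the exception, with H3K27me3 in its place. None of 4 leukocyte and 2 endothelial markers had H3K4me3. Both fibroblast markers, Col1a1 and Pdgfra, had it in all 4 populations, and of 4 melanocyte markers 2, 2, 2 and 1 had it. The fibroblast markers also had H3K27me3 in both non-HFSC lists, and Pdgfra had it in EA-HFSCs as well. The H3K4me3 peak counted for the melanocyte marker Pmel was centred upstream of its start in every list. The part of fibroblasts and melanocytes in the members' peaks was not tested.

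Imprinting is set in the germ line. DNA methylation laid down in the egg or the sperm at a germline differentially methylated region is kept on that parent's chromosome in the cells of the body, and the methylated copy carries H3K9me3 while the unmethylated copy carries H3K4me3. The zinc finger protein ZFP57 binds the methylated hexamer TGCCGC and, through TRIM28 and the H3K9 methyltransferase SETDB1, keeps the mark in place. Many other promoters within imprinted clusters hold no germline mark and can be silenced by Polycomb, which deposits H3K27me3. In a peak list an H3K4me3 and an H3K9me3 peak at the same start can therefore stem from the chromosomes of both parents, but also from different cells, and these cannot be told apart here.

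The sequence at and beside such overlaps is shown for 6 loci. The 150 bases below were read from NCBIM37, plus strand, 5′ to 3′, inside 1000-bp windows centred on the overlap of an H3K9me3 peak with an H3K4me3 peak of any population, and capitals mark TGCCGC or its reverse complement GCGGCA. Mest, Nap1l5, Peg3 and Gnas are shown because their windows held at least 5 matches (7, 5, 5 and 5), a number that an Impact window in non-LC-HFSCs also reached (5, not shown), and Peg10 with Sgce (1 match) and Igf2r (0) because their H3K9me3 peak in non-EA-HFSCs lay at least in part on H3K4me3 of the stem cells. Bases annotated as untranslated were left out. The Mest, Peg3, Gnas and Peg10 stretches are intronic, that of Nap1l5 is coding, and that of Igf2r lies upstream of the gene, inside the antisense noncoding gene Airn, on the H3K4me3 side of the overlap and outside the H3K9me3 peak.
Mest, chr6:30688350-30688499: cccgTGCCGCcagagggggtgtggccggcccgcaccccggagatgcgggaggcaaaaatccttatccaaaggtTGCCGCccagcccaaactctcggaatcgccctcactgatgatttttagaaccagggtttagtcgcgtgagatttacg
Nap1l5, chr6:58856807-58856956: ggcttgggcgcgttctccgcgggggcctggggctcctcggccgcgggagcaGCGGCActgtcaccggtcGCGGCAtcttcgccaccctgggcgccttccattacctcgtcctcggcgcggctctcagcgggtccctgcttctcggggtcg
Peg3, chr7:6682768-6682917: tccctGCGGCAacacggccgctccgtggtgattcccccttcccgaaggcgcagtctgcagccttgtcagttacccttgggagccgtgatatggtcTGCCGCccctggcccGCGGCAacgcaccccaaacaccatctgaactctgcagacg
Gnas, chr2:174121308-174121457: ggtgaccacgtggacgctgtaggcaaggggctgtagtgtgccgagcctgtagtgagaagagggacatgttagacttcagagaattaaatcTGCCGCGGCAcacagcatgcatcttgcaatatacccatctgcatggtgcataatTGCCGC
Peg10 and Sgce, chr6:4698349-4698498: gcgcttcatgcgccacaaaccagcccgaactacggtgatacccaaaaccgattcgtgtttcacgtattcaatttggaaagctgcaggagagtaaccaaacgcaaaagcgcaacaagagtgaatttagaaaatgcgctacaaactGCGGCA
Igf2r, chr17:12962757-12962906: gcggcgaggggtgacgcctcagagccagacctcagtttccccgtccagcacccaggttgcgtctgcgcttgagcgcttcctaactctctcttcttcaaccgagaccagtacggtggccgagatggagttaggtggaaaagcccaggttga
In the Gnas stretch the run TGCCGCGGCA holds a match on each strand, and the matches overlap.

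The hexamer was also counted over all windows where both peaks were of the same population, on both strands, overlapping matches counted separately. Where H3K9me3 and H3K4me3 of non-EA-HFSCs overlapped at a start, 3 of 6 windows at members held TGCCGC (50%), against 20 of 81 at protein-coding genes (24.7%), and the median ratio of observed to expected CpG was 0.592 against 0.393. The members' windows with the hexamer lay at Mest and Gnas alone, and those at Mest overlapped each other. In non-LC-HFSCs the figures were 4 of 6 (66.7%) against 754 of 1630 (46.3%), and in EA-HFSCs 11 of 20 (55%) against 4464 of 9299 (48%). No overlap of peaks of the same population existed in LC-HFSCs, at members or at other genes. With H3K4me3 of any population, as for the stretches shown, the figures were 3 of 8 (37.5%) against 26 of 122 (21.3%) in non-EA-HFSCs. They were 7 of 10 (70%) against 799 of 1804 (44.3%) in non-LC-HFSCs and 11 of 20 (55%) against 4500 of 9411 (47.8%) in EA-HFSCs. LC-HFSCs then had 9 overlaps at protein-coding genes and 0 at members. Windows centred on H3K4me3 peaks at members' starts held the hexamer as often as the same-population overlaps or more often. They held it in 58.3%, 77.8%, 57.6% and 68% of windows over the 4 populations, against 42.6%, 47.3%, 42.7% and 46.1% of those at all genes. These are counts of letters and do not show binding.

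H3K4me3, the mark of active and poised promoters, was at a start of 31 of 40 members in EA-HFSCs (77.5%, interval 62.5% to 87.7%), beside 62.4% of protein-coding genes. In LC-HFSCs it was at 18 members (45%, 30.7% to 60.2%), beside 55.9% of genes. In non-EA-HFSCs 25 members had it (62.5%) beside 61.7% of genes, and in non-LC-HFSCs 22 members (55%) beside 58.8%. The members thus stood above the background in stem cells of early anagen, below it in those of late catagen and close to it in both non-HFSC populations, and in 3 of the 4 populations the interval holds the background. The excess in EA-HFSCs is narrow, and it is lost with equal numbers of top-scoring peaks (60% beside 58.3%), with scores of at least 100 (70% beside 60.5%), within 1000 bp (72.5% beside 61.1%) and with the outermost start alone (67.5% beside 60.4%), where each interval holds the background.

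Fewer members than genes at large kept the mark between the stem cell lists. A gene was counted as keeping a mark when both lists had a peak at any of its starts, which need not be the same peak. Of the 31 members with H3K4me3 in EA-HFSCs, 18 also had it in LC-HFSCs (58.1%, 40.8% to 73.6%), whereas 89.3% of all genes marked in EA-HFSCs did. From non-EA-HFSCs to non-LC-HFSCs, 22 of 25 members (88%, 70% to 95.8%) and 94.6% of genes kept the mark. The 13 members without a peak in LC-HFSCs were Dlk1, Grb10, H19, Igf2, Mest, Nap1l5, Ndn, Nnat, Ppp1r9a, Slc22a18, Slc22a3, Zdbf2 and Zim1. Several of them had low-scoring peaks in EA-HFSCs (median of that list 612), such as Zdbf2 at 52.9, Dlk1 at 57.7, H19 at 99 and Zim1 at 103, while Ppp1r9a, which encodes the actin-binding protein neurabin, scored 627. Nnat, which encodes the membrane protein neuronatin, was counted in EA-HFSCs only through the edge of a peak (809) centred 4702 bp downstream of its nearest start and past the end of the gene. That peak lies at a start of the neighbouring gene Blcap, which had H3K4me3 in all 4 populations (809, 551, 3100 and 2660), so no H3K4me3 peak of Nnat itself was lost. The LC-HFSC list is shorter. When both lists were held to 14718 top-scoring peaks, 24 members had the mark in EA-HFSCs and 18 of them kept it (75%), beside 94.4% of genes, so 6 rather than 13 members were without it in LC-HFSCs.

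Members with H3K4me3 in all 4 populations numbered 16, and 54.9% of genes had it in all 4. They were H13, Mcts2, Gnas, Copg2, Peg3, Ube3a, Snrpn, Mkrn3, Inpp5f, Ascl2, Tssc4, Phlda2, Rasgrf1, Plagl1, Igf2r and Impact. Gnas, which encodes the stimulatory G-protein α-subunit, had its top peak at scores of 3100, 506, 3040 and 2810 in the 4 populations. Ube3a, an E3 ubiquitin ligase gene expressed from the maternal copy in neurons, had 2200, 395, 3100 and 3100. Ascl2, which encodes a helix-loop-helix transcription factor, had 1470, 358, 3100 and 1180. Within the EA-HFSC list the Gnas peak ranked 99 and the Ube3a peak 1975 of 21482, so these starts were among the most strongly called there.

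Some members were marked in part of the populations. Peg10, a retrotransposon-derived gene, and Sgce, the ε-sarcoglycan gene, start back to back and share 1 H3K4me3 peak, with a score of 672 in EA-HFSCs, 176 in LC-HFSCs and no peak in either non-HFSC list. Dlk1, Zdbf2 and Slc22a3, an organic cation transporter gene, had H3K4me3 in EA-HFSCs alone of the 4 lists, as Nnat did by count through the Blcap peak. These 4 members were the ones marked in a single list, as 2.84% of genes were. Grb10, Ndn and Zim1 had H3K4me3 in both populations of early anagen and in neither of late catagen. With Peg10 and Sgce, 5 members had it in exactly 2 lists, as 2.71% of genes did. No list had H3K4me3 at a start of Calcr, Asb4, Usp29, Magel2, Kcnq1, Ddc, Meg3, Rtl1 or Dio3 (9 members, beside 35.9% of genes).

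**Figure D1:**
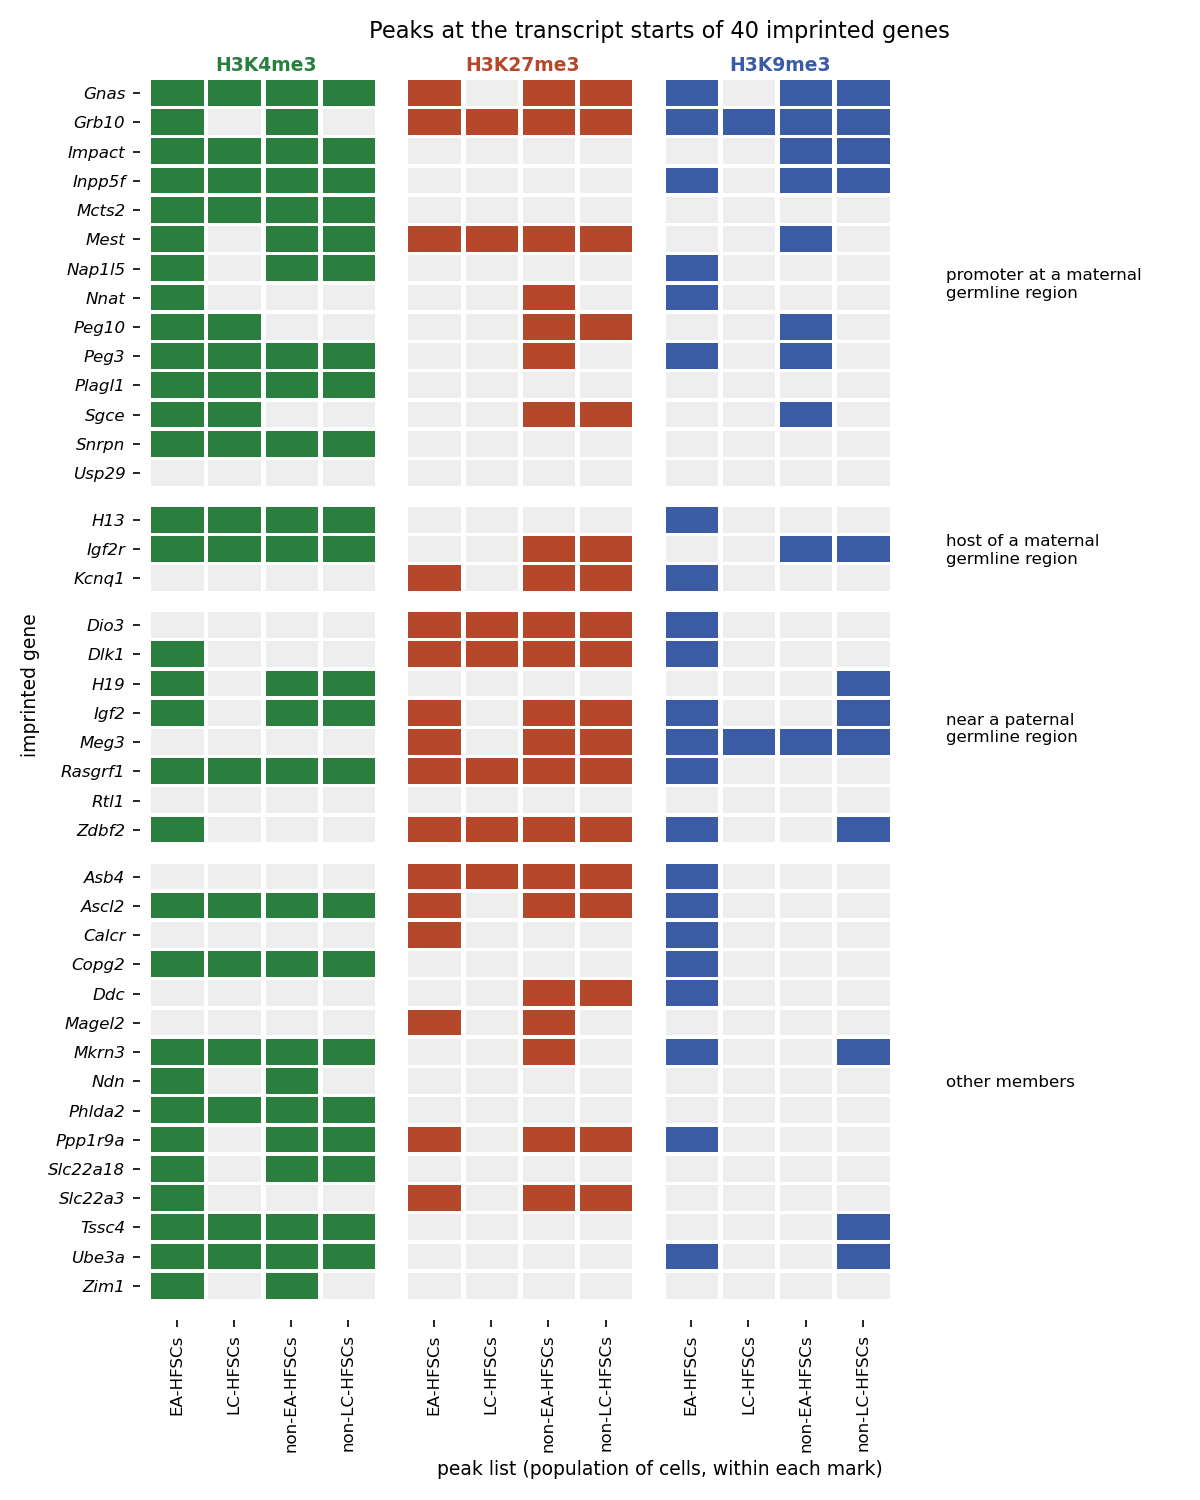
Presence of a peak within 3000 bp of an annotated start for each of the 40 imprinted genes (rows, grouped by their relation to a germline methylated region) in the 12 lists (columns, 4 populations within each mark); a coloured cell is at least 1 peak and a grey cell none. The H3K9me3 column of non-EA-HFSCs is filled at 8 of the 14 genes whose promoter is a maternally methylated region and at none of the 15 other members.

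H3K9me3, the mark of heterochromatin, was at a start of 10 members in non-EA-HFSCs (25%, 14.2% to 40.2%), where 4.14% of genes had it. The 10 were Gnas, Grb10, Igf2r, Impact, Inpp5f, Meg3, Mest, Peg10, Peg3 and Sgce, in 9 of the 18 clusters. By background knowledge 8 of them (all but Igf2r and Meg3) have a promoter at a maternally methylated germline region, out of 14 such members. Igf2r hosts such a region in an intron, Meg3 lies near a paternally methylated one, and none of the 15 members with neither relation had the mark in this population. The 8 of 14 became 3 with scores of at least 100, 5 within 1000 bp, 4 with the outermost start and 0 with equal numbers of top-scoring peaks, which left Igf2r and Meg3 alone, and the 15 stayed at 0 under each of these. In EA-HFSCs 22 members had it (55%, 39.8% to 69.3%), but so did 47.9% of genes. By the same grouping 6 of 14 were marked against 8 of 15, and of the 8 members near a paternally methylated region 6 were. With equal numbers of top-scoring peaks 6 members and 779 genes had it in EA-HFSCs, and the members' interval then lay above the background. The grouping was then 2 of 14, 1 of 15 and 3 of 8, and with scores of at least 100 it was 2, 1 and 5. In non-LC-HFSCs it was at 12 members (30%, 18.1% to 45.4%) beside 14.1% of genes, and at 4 of the 14 (Gnas, Grb10, Impact and Inpp5f) against 3 of the 15 (Mkrn3, Tssc4 and Ube3a). Of the 8 near a paternally methylated region 4 had it in these cells. With scores of at least 100 a single member was left there (2.5%, 0.443% to 12.9%, beside 0.778% of genes), and the excess is lost.

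In LC-HFSCs H3K9me3 was at a start of Grb10 and Meg3 alone (5% of members, 1.38% to 16.5%), beside 0.505% of genes, and neither was left with scores of at least 100. These 2 were also the members with the mark in all 4 populations, as 0.335% of genes were. Of the 22 members marked in EA-HFSCs, these 2 were marked in LC-HFSCs (9.09%, 2.53% to 27.8%), whereas 0.765% of genes kept the mark. At Meg3 the peaks of both stem cell lists overlapped, while at Grb10 the top peaks lay at different starts. From non-EA-HFSCs to non-LC-HFSCs 6 of 10 members kept the mark (60%, 31.3% to 83.2%), and 44.3% of genes did, a share that the interval holds. Among these members, the peaks of the non-HFSC lists did not overlap at Impact, and at Grb10 the top peaks lay at different starts.

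Meg3 is a noncoding RNA gene expressed from the maternal copy, whose start and upstream region are methylated on the paternal copy. Its H3K9me3 peaks at a start had top scores of 72.6 in EA-HFSCs, 69.7 in LC-HFSCs, 213 in non-EA-HFSCs and 85.2 in non-LC-HFSCs. The non-EA-HFSC peaks spanned 2975 and 3456 bp side by side, from 4189 bp upstream to 2257 bp downstream of the first start. All 4 populations shared 124 bp, at chr12:110777782-110777905, upstream of the gene. The 1000-bp window around it held no TGCCGC, with an observed to expected CpG ratio of 0.384, and 150 bases of it read as follows, from the plus strand. They begin inside the shared stretch and run past its end, at 110777905.
Meg3, chr12:110777862-110778011: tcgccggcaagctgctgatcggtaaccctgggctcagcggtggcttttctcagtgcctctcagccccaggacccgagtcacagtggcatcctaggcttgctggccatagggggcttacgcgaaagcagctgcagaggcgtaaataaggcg
H3K4me3 was at no start of Meg3, and H3K27me3 was in 3 lists, at top scores of 202, 141 and 63.2 in EA-HFSCs and the non-HFSCs of early and late stage. Farther upstream, between Dlk1 and Meg3, H3K9me3 peaks were centred 12681 and 18729 bp upstream of Meg3 in EA-HFSCs (scores 41.9 and 57.3), 13261 bp upstream in non-EA-HFSCs (score 103), and 15082 bp downstream of the first start of Dlk1, past its end, in non-LC-HFSCs (score 41.1).

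Grb10, an adaptor that restrains insulin and IGF receptor signalling, was the other member with H3K9me3 in all lists, but at different starts. The top peaks of LC-HFSCs and non-EA-HFSCs overlapped, centred 67442 and 67323 bp downstream of the first start, whereas the top peak of EA-HFSCs was centred 3782 bp downstream of it and that of non-LC-HFSCs lay upstream. No H3K9me3 peak was thus common to the 4 lists, and with the outermost start alone Grb10 was marked in EA-HFSCs and non-LC-HFSCs only. Its top scores at any start were 340, 40.6, 147 and 50.9 in the 4 populations, and the LC-HFSC peak lay near that list's lower limit, at rank 1380 of 1414. H3K27me3 was at starts of Grb10 in all 4, at top scores of 1160, 96.3, 1050 and 1440. H3K4me3 was near the first start in EA-HFSCs (216) and non-EA-HFSCs (59.3), in the latter away from the H3K9me3 peaks, and absent from both lists of late catagen.

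H3K4me3 and H3K9me3 at the same start were found at 5 members in non-EA-HFSCs (12.5%, 5.46% to 26.1%), where 1.67% of genes had both. They were Gnas, Igf2r, Impact, Mest and Peg3. In non-LC-HFSCs 8 members had both marks (20%, 10.5% to 34.8%; Gnas, H19, Igf2, Igf2r, Impact, Mkrn3, Tssc4 and Ube3a) beside 10.2% of genes. In EA-HFSCs 16 members had both (40%, 26.3% to 55.4%) beside 42.7%, and in LC-HFSCs none did, beside 0.0492%. Among members with H3K4me3 the share with H3K9me3 at the same start was 20% in non-EA-HFSCs, beside 2.71% of genes with H3K4me3, 36.4% in non-LC-HFSCs beside 17.3%, and 51.6% in EA-HFSCs beside 68.4%. The share of all 40 members stood above the background in non-EA-HFSCs, narrowly above it in non-LC-HFSCs and near it in EA-HFSCs. Among members with H3K4me3 the EA-HFSC share was lower than that of genes. At Copg2 and Nnat the marks of EA-HFSCs lay apart, by 965 and 2916 bp. In non-LC-HFSCs the excess is lost when the peaks had to overlap, with 6 members (15%, 7.06% to 29.1%) beside 8.6% of genes, with the outermost start (7 members, 17.5%, 8.75% to 31.9%, beside 9.31%) and with equal numbers of top-scoring peaks (1 member).

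**Figure D2:**
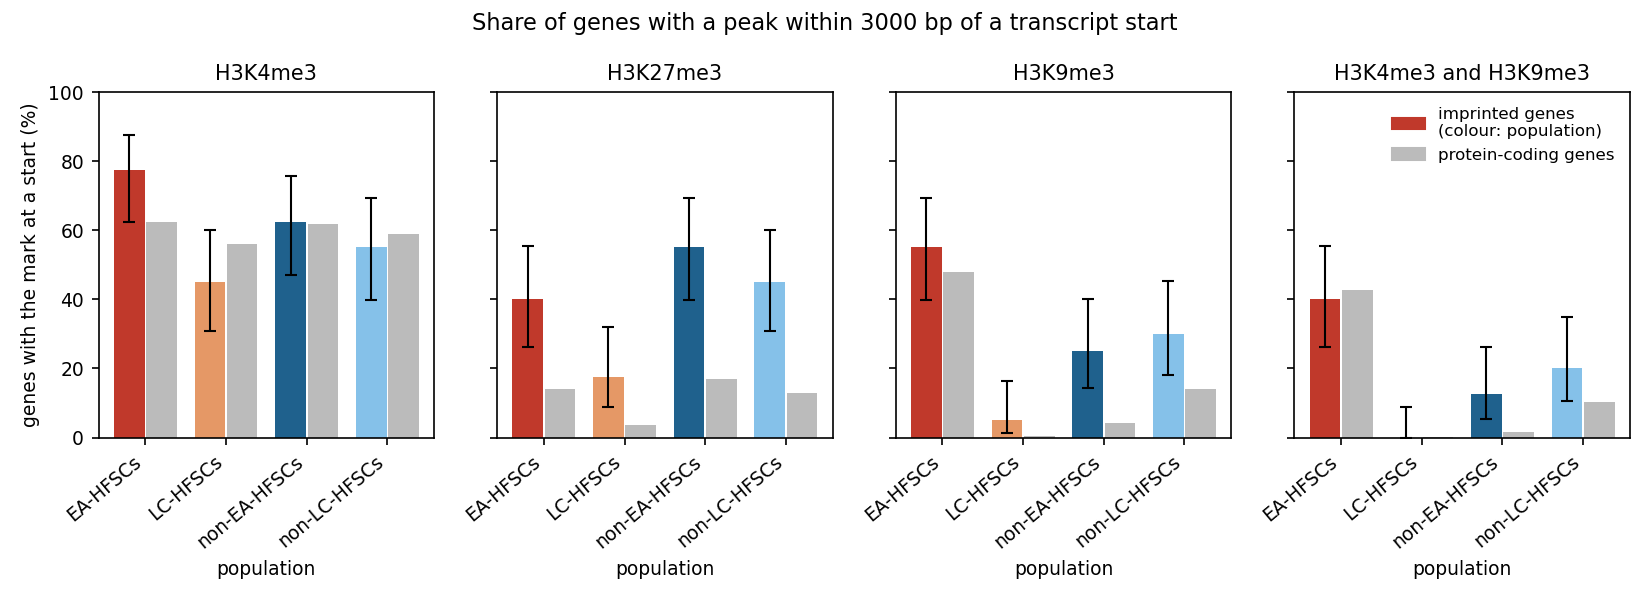
Percent of genes with a peak within 3000 bp of a start (y axis) in each population (x axis), for the 3 marks and for H3K4me3 with H3K9me3 at the same start; coloured bars are the 40 imprinted genes with 95% Wilson intervals and grey bars the 22367 protein-coding genes. H3K27me3 in all 4 populations and H3K9me3 in both non-HFSC populations and LC-HFSCs stand above the grey bars with their intervals, while H3K4me3 does so in EA-HFSCs by a narrow margin. With scores of at least 100 this no longer holds for either repressive mark in LC-HFSCs, for H3K9me3 in non-LC-HFSCs or for H3K4me3 in EA-HFSCs.

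In non-EA-HFSCs the marks overlapped in part at Gnas, Igf2r, Impact and Mest and lay apart at Peg3. When the H3K9me3 peak had to overlap the H3K4me3 peak of the same population by at least 1 bp, 4 members and 0.353% of genes remained in non-EA-HFSCs. When at least 50% of it had to lie on the H3K4me3 peak, no member and 0.121% of genes remained there. By this rule 5 members were left in non-LC-HFSCs (12.5%, 5.46% to 26.1%, with 8.41% of genes), where the interval holds the background. In EA-HFSCs 10 were left (25%, 14.2% to 40.2%, with 40.5% of genes), narrowly below the background. Each locus is described in turn.

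Igf2r encodes the receptor that clears IGF2 and is expressed from the maternal copy, whose promoter is unmethylated. H3K4me3 covered its start in all 4 populations, at top scores of 1030, 203, 620 and 393. H3K9me3 lay just upstream, centred 2017 bp before the start with a score of 243 in non-EA-HFSCs (chr17:12963039-12966055) and 1530 bp before it with a score of 134 in non-LC-HFSCs. In non-EA-HFSCs the peaks of both marks overlapped by 29 bp and in non-LC-HFSCs they were 217 bp apart. The non-LC-HFSC peak ranked 308 of 18236 in its list. H3K27me3 was there as well, at 440 and 193, in the non-HFSC populations, and neither repressive mark was at the start in either stem cell list.

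Mest, a paternally expressed gene of the α/β-hydrolase family, had H3K9me3 in non-EA-HFSCs at scores of 105 and 45.7, and in no other list. Its H3K4me3 scores were low, 193 in EA-HFSCs, 163 in non-EA-HFSCs and 59.4 in non-LC-HFSCs, with no peak in LC-HFSCs. The H3K9me3 peaks bordered each other across the H3K4me3 peak of the same cells and overlapped it by 791 and 449 bp. This is the start whose window held 7 TGCCGC matches, the sequence given first above. H3K27me3 was at a start of Mest in all 4 populations, with top scores of 180, 47.6, 278 and 632.

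Peg3, a paternally expressed zinc finger gene, had H3K4me3 in all 4 populations at 1440, 374, 731 and 691. H3K9me3 scored 51 in EA-HFSCs, inside the H3K4me3 peak at the stretch shown above, and 43.4 in non-EA-HFSCs, where it was centred 1073 bp upstream. The non-EA-HFSC peak was 166 bp from the H3K4me3 peak of the same cells and overlapped that of EA-HFSCs by 371 bp. H3K27me3 was at the start of Peg3 in non-EA-HFSCs alone (55.2). Peg10 and Sgce had an H3K9me3 peak in non-EA-HFSCs with a score of 40, at that list's lower limit, wholly on the stretch with H3K4me3 in the stem cells. H3K4me3 was absent there from the non-HFSCs, which had H3K27me3 instead, at 127 in non-EA-HFSCs and 79.3 in non-LC-HFSCs.

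Gnas is a complex locus with several promoters, some used from the paternal copy and some from the maternal. At its main start H3K4me3 was 6621, 5638, 5581 and 5992 bp wide, whereas H3K9me3 lay mainly over the upstream promoters. In non-EA-HFSCs H3K9me3 peaks with scores of 48 and 103 overlapped an H3K4me3 peak with a score of 80.9, and in non-LC-HFSCs an H3K9me3 peak with a score of 84.6 covered nearly the same bases, at rank 1418 of 18236. That peak overlapped no H3K4me3 peak of the same cells, but another one of non-LC-HFSCs (47.4) lay wholly on H3K4me3 at the main start. An H3K9me3 peak of EA-HFSCs (45.4) also lay wholly on H3K4me3 there. EA-HFSCs had 8 H3K9me3 peaks at starts of Gnas, of which the top scored 240, and LC-HFSCs had none. H3K27me3 top scores there were 1050, 954 and 786 in EA-HFSCs and the non-HFSCs of early and late stage. Gnas was the only member with all 3 marks at its starts in the 3 populations other than LC-HFSCs.

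Impact, which encodes an inhibitor of the kinase GCN2, had H3K4me3 in all 4 populations at 1060, 396, 1010 and 655. H3K9me3 was weak, with a score of 52.4 in non-EA-HFSCs, 2876 bp downstream of the start, and 40.8 and 40 in non-LC-HFSCs, on both sides of it. Inpp5f, an inositol phosphatase gene, had H3K9me3 at 45.4, 52.8 and 54.6 in EA-HFSCs and the non-HFSCs of early and late stage. Its peaks in the non-HFSCs did not share a start with H3K4me3. All of these scores are between 40 and 54.6, near the lists' lower limit of 40.

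In non-LC-HFSCs the members with both marks were partly of another kind. Ube3a (46.5), Mkrn3 (50.6), a gene for a RING finger protein, and Tssc4 (64.4) had an H3K9me3 peak on or beside an H3K4me3 peak, and none of these 3 promoters is a germline region. Ube3a and Mkrn3 had both marks in EA-HFSCs as well, where H3K9me3 scored 70.5 and 56.2 and lay wholly on the H3K4me3 peak. The Mkrn3 H3K4me3 scores were 708, 135, 609 and 424 in the 4 populations, and H3K27me3 was near its start in non-EA-HFSCs alone (47.5). At Igf2, the paternally expressed growth factor gene, H3K9me3 scored 56.5 and overlapped H3K4me3 (122) by 467 bp, with H3K27me3 at 1400. In EA-HFSCs an H3K9me3 peak of 8352 bp (279) lay across both H3K4me3 peaks of Igf2 (160 and 63.2) with H3K27me3 at 1410, and in non-EA-HFSCs Igf2 had H3K4me3 (171) and H3K27me3 (120) without H3K9me3. At H19, the noncoding RNA gene beside it that is expressed from the maternal copy, an H3K9me3 peak of 46.5 was centred 3303 bp upstream of the first start and 251 bp from the H3K4me3 peak of the same cells (56.9). In EA-HFSCs and non-EA-HFSCs the same upstream stretch carried H3K4me3 (99 in the former, 268 and 56.8 in the latter).

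**Figure D3:**
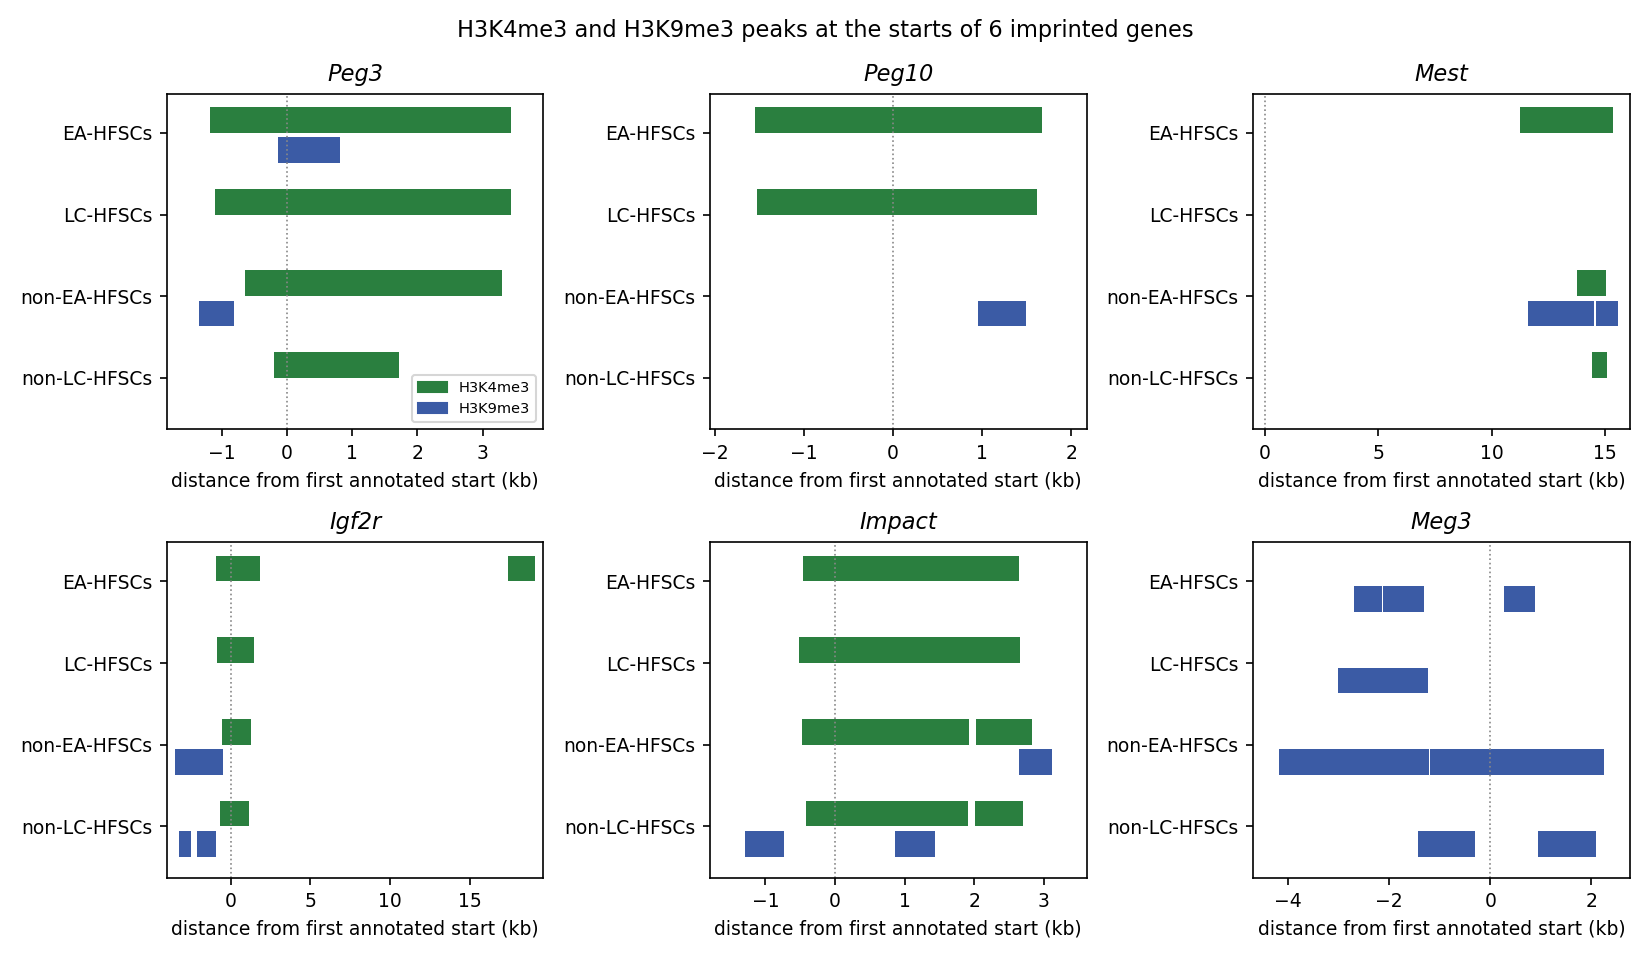
H3K4me3 (green) and H3K9me3 (blue) peaks at the starts of 6 imprinted genes in the 4 populations, by distance from the first annotated start in kb along the direction of transcription; the dotted line is that start. H3K9me3 lies beside or at the edge of H3K4me3 at Peg3, Igf2r and Impact in non-EA-HFSCs, across it at Mest, without it at Peg10 in the same cells, and without H3K4me3 in any list at Meg3.

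H3K27me3, the Polycomb mark, was at a start of more members than the background in every population. With scores of at least 100 this no longer holds in LC-HFSCs (1 member, 2.5%, 0.443% to 12.9%, beside 1.19%). It was at 16 members in EA-HFSCs (40%, 26.3% to 55.4%) beside 14% of genes, at 7 in LC-HFSCs (17.5%, 8.75% to 31.9%) beside 3.73%, at 22 in non-EA-HFSCs (55%, 39.8% to 69.3%) beside 16.8%, and at 18 in non-LC-HFSCs (45%, 30.7% to 60.2%) beside 12.9%. Of the 16 in EA-HFSCs 7 kept it in LC-HFSCs (43.8%, 23.1% to 66.8%), beside 26.1% of genes. From non-EA-HFSCs to non-LC-HFSCs 18 of 22 kept it (81.8%, 61.5% to 92.7%), beside 71.2%. Both intervals hold the background, and with scores of at least 100 both shares lay below it (7.14% beside 11.8% and 61.1% beside 69.6%). The 8 members near a paternally methylated region had the mark in 6, 4, 6 and 6 cases over the 4 populations, the 14 with a promoter at a maternally methylated region in 3, 2, 7 and 5, and the 15 members with neither relation in 6, 1, 7 and 5.

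The 7 members with H3K27me3 in LC-HFSCs had it in all 4 populations (beside 3.56% of genes) and were Zdbf2, Asb4, Mest, Rasgrf1, Grb10, Dlk1 and Dio3. Dlk1, which encodes a membrane protein related to the Notch ligands, had top scores of 932, 53.6, 543 and 62 in the 4 populations. Dio3, the thyroid hormone-inactivating deiodinase gene at the far end of the same cluster, had 1440, 85.5, 792 and 452. Asb4, which encodes an ankyrin repeat protein with a SOCS box, had 790, 42, 779 and 236. These 3 genes had H3K9me3 at a start in EA-HFSCs alone, with top scores of 157 at Dlk1, 140 at Dio3 and 77.1 at Asb4. Rtl1, between Dlk1 and Dio3, had no peak of any mark at its start.

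Zdbf2, a paternally expressed gene, stood out by width. A single H3K27me3 peak over and upstream of its start was 38183 bp wide in EA-HFSCs, 45517 bp in non-EA-HFSCs and 32705 bp in non-LC-HFSCs. In LC-HFSCs the peak was 5575 bp wide and lay downstream of the start, and its score of 262 ranked 34 of 1909 in that list. Non-LC-HFSCs had a further peak over nearly the same bases, 5402 bp wide with a score of 1540 at rank 179. In EA-HFSCs 8 H3K9me3 peaks lay in the stretch of the wide H3K27me3 peak, the top scoring 634 at rank 251 of 42277, and 5 smaller ones with scores of at most 84.3 were there in non-LC-HFSCs. Rasgrf1, a Ras guanine nucleotide exchange factor gene, had H3K27me3 at its start at 1310, 71.3, 949 and 809 in the 4 populations, with H3K4me3 at 845, 79.2, 512 and 723. H3K9me3 was at its start in EA-HFSCs alone, as a peak of 3870 bp with a score of 666 at rank 233 of 42277. It was the member with H3K4me3 and H3K27me3 at the same start in LC-HFSCs. Further H3K27me3 peaks lay within 46 kb upstream of Rasgrf1 in every population, 2 of them in LC-HFSCs. The paternally methylated region lies upstream of this gene, and in the same stretch H3K9me3 peaks were called in EA-HFSCs, in non-EA-HFSCs (53.4) and in non-LC-HFSCs (50.3).

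Peaks of H3K4me3 and H3K27me3 at the same start can mark the bivalent state of poised promoters. They can also stem from the chromosomes of both parents or from different cells, and these cannot be told apart here. Both marks were at the same start of 10 members in EA-HFSCs (25%) beside 8.52% of genes, of Rasgrf1 alone in LC-HFSCs (2.5%) beside 1.14%, of 10 in non-EA-HFSCs (25%) beside 10.3%, and of 7 in non-LC-HFSCs (17.5%) beside 6.17%. In EA-HFSCs these were Ascl2, Dlk1, Gnas, Grb10, Igf2, Mest, Ppp1r9a, Rasgrf1, Slc22a3 and Zdbf2. With equal numbers of top-scoring peaks 3, 2 and 2 members in EA-HFSCs and the non-HFSCs of early and late stage were left (2.53%, 2.44% and 1.7% of genes), and with at least 50% of the H3K27me3 peak on the H3K4me3 peak 3, 2 and 0 (2.62%, 1.61% and 1.39%). The excess over the background is therefore lost in both non-HFSC populations under either rule, and in EA-HFSCs under the second. All 3 marks were at starts of 8 members in EA-HFSCs (beside 7.24% of genes), of 5 in non-EA-HFSCs (Gnas, Mest, Peg3, Grb10 and Igf2r, beside 0.756%), of 3 in non-LC-HFSCs (Gnas, Igf2 and Igf2r, beside 1.5%) and of none in LC-HFSCs.

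Over gene bodies H3K27me3 stood above the background in every population, and H3K9me3 in non-EA-HFSCs alone when the whole lists were used. With equal numbers of top-scoring peaks H3K9me3 over bodies stood above the background in EA-HFSCs as well. H3K27me3 was over the body of 17, 7, 22 and 17 members in the 4 populations, beside 14.7%, 3.81%, 17% and 13.4% of genes, with intervals of 28.5% to 57.8%, 8.75% to 31.9%, 39.8% to 69.3% and 28.5% to 57.8%. With scores of at least 100 its excess over bodies is lost in LC-HFSCs (1 member, 0.443% to 12.9%, beside 1.23%). It covered 6.42%, 1.05%, 14.4% and 7.29% of the members' summed length, beside 2.27%, 0.332%, 2.77% and 1.5% for all genes. H3K9me3 was over the body of 25, 2, 13 and 12 members, beside 51.1%, 1.46%, 13.4% and 22.2% of genes. The interval of its share was 20.1% to 48% in non-EA-HFSCs, above the background, and held the background in the other lists (47% to 75.8% in EA-HFSCs, 1.38% to 16.5% in LC-HFSCs and 18.1% to 45.4% in non-LC-HFSCs). H3K9me3 covered 3.22%, 0.117%, 2.38% and 0.861% of their length, beside 1.87%, 0.0934%, 0.748% and 0.496%.

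Kcnq1, a voltage-gated potassium channel gene, is 319797 bp long. It had no H3K4me3 at a start, but inside an intron a peak of about 3 kb, centred 188223 to 188314 bp downstream of the first start, was called in all 4 populations at scores of 1640, 518, 2930 and 1200. Its bounds in EA-HFSCs were chr7:150479914-150482967. RefSeq places the antisense noncoding gene Kcnq1ot1, whose promoter is a maternally methylated germline region, inside Kcnq1, but the annotation of the present build does not list it, so the peak was assigned to no start. In the LC-HFSC list the peak ranked 1763 of 14718. H3K27me3 covered 6.63% of Kcnq1 in EA-HFSCs, 0% in LC-HFSCs, 28.1% in non-EA-HFSCs and 12.6% in non-LC-HFSCs, with no peak on the intronic H3K4me3. In EA-HFSCs an H3K9me3 peak of 1617 bp (score 52.3) lay inside that H3K4me3 peak, and the other lists had none there. H3K9me3 peaks centred 143654, 144568 and 143547 bp downstream of the start overlapped in LC-HFSCs (64.1) and in the early (240) and late (88.4) non-HFSCs.

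**Figure D4:**
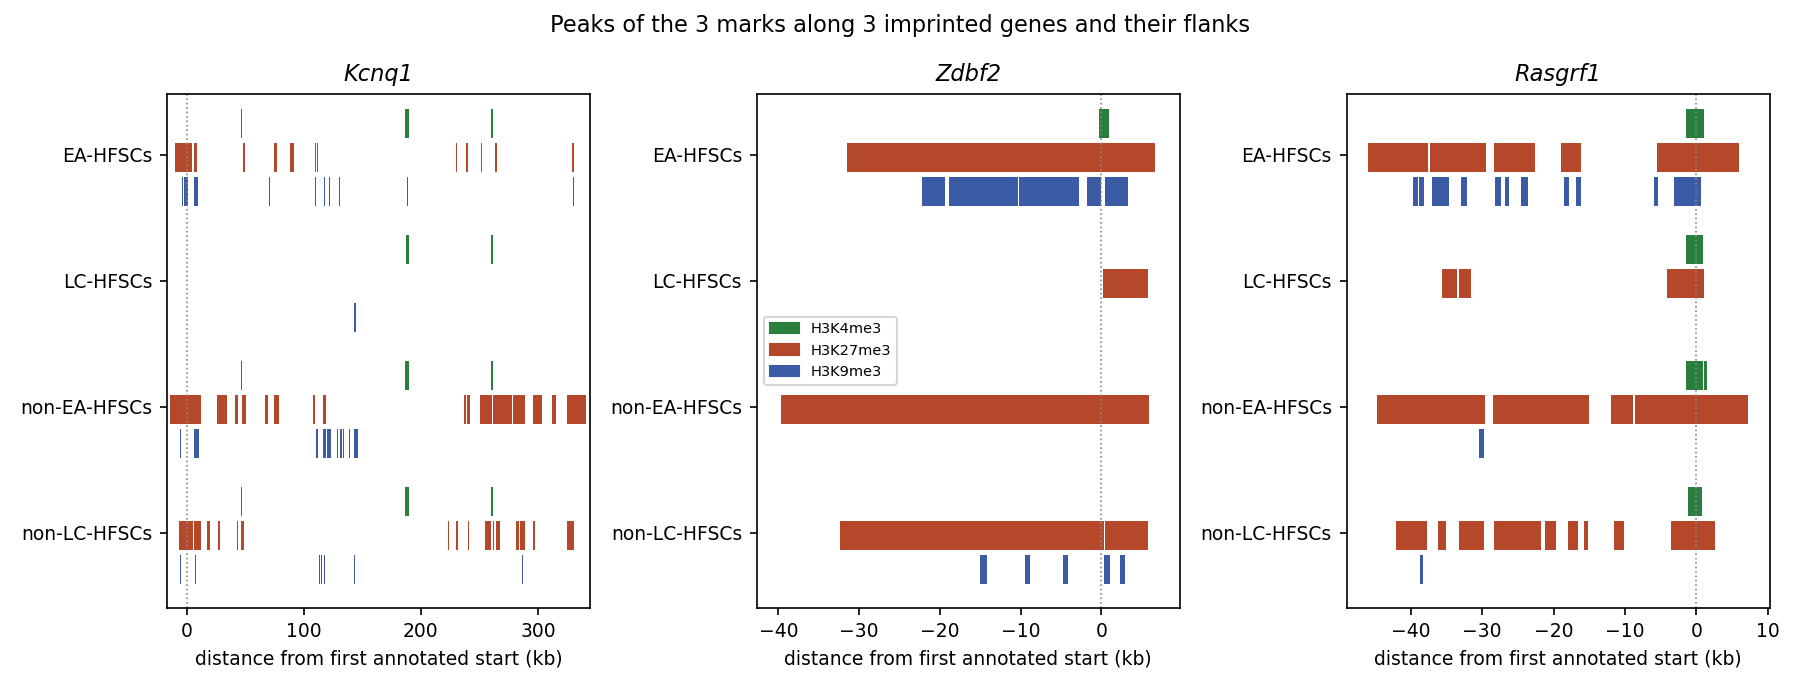
H3K4me3 (green), H3K27me3 (red) and H3K9me3 (blue) peaks along Kcnq1, Zdbf2 and Rasgrf1 and their flanks in the 4 populations, by distance from the first annotated start in kb along the direction of transcription. The intronic H3K4me3 peak of Kcnq1 near 188 kb is present in every population, and the H3K27me3 stretch upstream of Zdbf2 is present in 3 populations and missing in LC-HFSCs.

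Usp29, a ubiquitin protease gene, and Rtl1 had no peak of any mark at a start in any list, as 26.9% of genes did. The annotated start of Usp29 in this build is not the one shared with Peg3, so the Peg3 peaks were not counted for it. Calcr, the calcitonin receptor gene, and Ddc, the dopa decarboxylase gene, had repressive marks and no H3K4me3, and Magel2 had H3K27me3 in EA-HFSCs and non-EA-HFSCs alone. Plagl1, Phlda2, Snrpn and Mcts2 showed the opposite, with H3K4me3 at a start in all 4 populations and neither repressive mark there, and H13 and Copg2 had H3K9me3 at a start in EA-HFSCs only. Away from the starts, H3K9me3 was over the body of Snrpn in both populations of early anagen, of Plagl1 in non-LC-HFSCs and of Copg2 in non-EA-HFSCs. Mcts2 is a retrogene inside H13, and peaks at its start can be counted for both.

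Of 36 further imprinted genes 30 were found in the annotation and described in the same way. They are not a separate set of observations, since some were counted through peaks of members, such as Nespas (Gnas), Cd81 (Tssc4) and Blcap (Nnat). H3K4me3 was at a start of 22, 15, 19 and 17 of the 30 in the 4 populations (73.3%, 50%, 63.3% and 56.7%, beside 62.4%, 55.9%, 61.7% and 58.8% of protein-coding genes), H3K27me3 of 9, 5, 14 and 9 (30%, 16.7%, 46.7% and 30%, beside 14%, 3.73%, 16.8% and 12.9%), and H3K9me3 of 21, 1, 5 and 9 (70%, 3.33%, 16.7% and 30%, beside 47.9%, 0.505%, 4.14% and 14.1%). The 5 with H3K9me3 in non-EA-HFSCs were Airn, Klf14, Nespas, Osbpl5 and Sfmbt2, and Klf14, Nespas and Sfmbt2 had H3K4me3 at the same start. The 1 in LC-HFSCs was Airn, the noncoding gene that silences paternal Igf2r, with a score of 47.6. Airn had H3K4me3 in all 4 populations, at scores of 1310, 275, 380 and 287. At Klf14, a zinc finger transcription factor gene without introns, the top H3K9me3 scores were 1300, 707 and 441 in EA-HFSCs and the non-HFSCs of early and late stage, ranking 26, 121 and 16 in their lists.

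The genes that read and keep the imprints carried H3K4me3 for the most part. Of 13 such genes 11 had H3K4me3 at a start in every population (84.6%, beside 54.9% of protein-coding genes), among them Zfp57, Trim28, Setdb1, Dnmt1 and Uhrf1. The exceptions were Dppa3, a maternal-effect protector of methylation, and Dnmt3l, the cofactor that helps to set imprints in the germ line. Zfp57 also had H3K27me3 in both non-HFSC populations. None of the 13 had H3K9me3 in non-EA-HFSCs or LC-HFSCs, 3 had it in non-LC-HFSCs (23.1% beside 14.1% of genes) and 7 in EA-HFSCs (53.8% beside 47.9%).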

How the data were processed

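The 12 deposited lists hold the authors' MACS peaks on mm9, each with a score, the negative log10 of the p-value against IgG times 10 (lowest scores of 50 for H3K4me3 and 40 for the other marks). Reads from mononucleosomes had been trimmed (Trimmomatic 0.22 in the submitters' processing notes), aligned with Bowtie2 and pooled over replicates, so read depth is unknown from the lists.

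Peaks were matched to starts (3000 bp to either side) and gene bodies (1 bp) of GENCODE vM1 with Python 3.11.15, a step that recovered 100% of 2000 queries on simulated peaks, by brute force and by bedtools 2.31.1. Peaks on chromosomes 1 to 19, X and Y ended within the NCBIM37 lengths, and the others (4 to 297 per list) entered no count of genes. 2 marks were at the same start when both had a peak within the window of that start. Shares carry 95% Wilson intervals, and no test was possible with 1 list per condition. The members and lists were chosen with earlier results of these data known. All 40 members are named. Those with H3K4me3 and H3K9me3 at the same start in at least 2 populations, with a repressive mark in LC-HFSCs, or with no peak are described one by one. The alternatives were a score of at least 100, equal numbers of top peaks, 1000 bp, outermost starts, at least 200 bp over the body, and overlapping marks. RefSeq's GRCm38 table served for the position of Kcnq1ot1 within Kcnq1 alone.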

Additional observations from a re-analysis of the deposited data

How the results depend on the processing

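Presence of a peak depends on list length and depth, which the lists do not give, and a missing peak is not absence of the mark. Where 3 counts are given they are for EA-HFSCs and the non-HFSCs of early and late stage. With equal numbers of top-scoring peaks (14718, 1909 and 1414 for H3K4me3, H3K27me3 and H3K9me3, the LC-HFSC list lengths), H3K27me3 was at a start of 8, 9 and 8 members (5.07%, 6.15% and 5.21% of genes), over the body of 8, 9 and 8 (5.23%, 6.23% and 5.19%), and at the same start as H3K4me3 in 3, 2 and 2 (2.53%, 2.44% and 1.7%). H3K9me3 was at a start of 6, 2 and 2 members (3.48%, 0.671% and 1.28% of genes), over the body of 6, 3 and 1 (3.49%, 1.76% and 2.37%), and at the same start as H3K4me3 in 3, 1 and 1 (2.45%, 0.17% and 0.68% of genes). In EA-HFSCs the H3K9me3 intervals for a start and for the body thus lay above the background, an excess that the whole lists did not show. H3K27me3 was then kept by 5 of 8 members between the stem cell lists (62.5%, beside 53.9% of genes). Between the non-HFSC lists 5 of 9 kept it (55.6%), a smaller share than the 70% of genes. H3K9me3 was kept by 1 of 6 members between the stem cell lists (16.7%, beside 1.28%) and by 2 of 2 between the non-HFSC lists (beside 44%).

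With scores of at least 100, H3K27me3 was at a start and over the body of 1 member in LC-HFSCs (1.19% and 1.23% of genes) and of 11 in non-LC-HFSCs (9.12% and 9.08%). It was kept by 1 of 14 members between the stem cell lists (7.14%, beside 11.8% of genes) and by 11 of 18 between the others (61.1%, beside 69.6%). Both of these shares lay below those of genes. It was at the same start as H3K4me3 in 0 members in LC-HFSCs (0.165% of genes), 6 in the non-HFSCs of early stage (6.81%) and 3 in those of late stage (3.45%, where the excess is lost). H3K9me3 was at a start of 9, 0, 5 and 1 members in the 4 populations (16.7%, 0.148%, 1.39% and 0.778% of genes, so that the excess is lost in both populations of late catagen), and over the body of 9, 0, 6 and 0 (16.5%, 0.326%, 4.4% and 1.47%). It was kept by 0 of 9 members between the stem cell lists (beside 0.375% of genes) and by 1 of 5 between the others (20%, beside 22.8%). Both H3K4me3 and H3K9me3 were at 5, 2 and 1 (15%, 0.411% and 0.349% of genes).

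Within 1000 bp, H3K4me3 and H3K9me3 were at the same start of 3 members in non-EA-HFSCs (0.34% of genes), and H3K9me3 was at 1 in LC-HFSCs. It was kept by 1 of 20 members between the stem cell lists (5%, beside 0.407% of genes) and by 3 of 7 between the others (42.9%, beside 41.6%). With the outermost start of each gene, both marks were at 3 members in non-EA-HFSCs (1.4% of genes), and H3K9me3 was at 1 in LC-HFSCs and 6 in non-EA-HFSCs. It was kept by 1 of 20 members between the stem cell lists (5%, beside 0.425% of genes) and by 3 of 6 between the others (50%, beside 39%). With at least 50% of the second peak on the H3K4me3 peak, H3K9me3 was there at 10, 0 and 5 members and H3K27me3 at 3, 2 and 0, with 0 also in LC-HFSCs. All other counts of the 40 members with a peak under these alternatives, with marks that overlapped by at least 1 bp and with at least 200 bp over the body, were within 1.5 times of the reported ones. No paired analysis was possible because replicates had been pooled into 1 list per condition.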
